A study of Mus musculus with 31 samples.

Results

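Of the 18 libraries labelled as lateral olivocochlear (LOC) neurons, 4 held fewer than 10 reads of the cholinergic genes Chat, Slc18a3 and Slc5a7 summed, and these 4 cells, numbered 7, 9, 14 and 16 in the labels, are described here. They were selected on these measured reads, so their low cholinergic level is the rule and not a result. The other 14 LOC libraries, with 10 or more such reads, serve as the comparison and are called rich below, against poor for the 4. Each library is 1 cell, the series holds 31 cells in all (18 LOC and 13 medial olivocochlear, MOC), and the labels tie no cell to an animal. The LOC cells therefore count as 1 sample, no test between the sides was made, and values are given cell by cell.

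All 18 cells share their source and treatment. Red fluorescent neurons of the lateral superior olive were recorded by patch clamp in acute brainstem slices of mice carrying ChAT-IRES-Cre and a tdTomato reporter, which marks cells in which the Chat locus has driven Cre at any time. The labels name the genotype wild-type and give no age. After the recording the cytoplasm was aspirated, amplified with SmartSeq2 and sequenced, and MOC cells were taken in the same way from the ventral nucleus of the trapezoid body.

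Olivocochlear neurons are the efferent cells of the auditory brainstem: LOC neurons contact the dendrites of auditory nerve fibres close to the inner hair cells, whereas the axons of MOC neurons end on the outer hair cells. Both are cholinergic and develop from a motor neuron lineage marked by Gata2, Gata3 and Isl1. LOC neurons can also carry peptides such as CGRP, encoded by Calca and Calcb, and urocortin, encoded by Ucn. A cholinergic neuron makes acetylcholine with Chat, loads it into vesicles with the transporter made from Slc18a3, and takes choline back up with the product of Slc5a7.

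The 3 genes that set the rule lie at 2 loci in GRCm38 (GENCODE M21): Chat at chr14:32408203-32465989 with Slc18a3 inside it on the same strand (chr14:32462438-32464850), and Slc5a7 at chr17:54273590-54299034. Cell 7 held 5 reads, 4 of Slc18a3 and 1 of Slc5a7. Cell 9 held 4 reads, all of Slc5a7. Cells 14 and 16 held none of any of the 3 genes, which at their depths allows up to 4.26 and 5.91 CPM (reads per 1000000 reads counted on mouse genes), taking 3 counts as the limit of a 0. The exact Poisson interval of the summed level was 4.56 to 32.7 CPM in cell 7 and 2.22 to 20.8 CPM in cell 9, covering counting error only. The 14 rich cells ran from 11 to 1613 reads with a median of 356, or 11.6 to 1740 CPM. Just outside the threshold stood rich cell 17, with 11 reads, all of Slc5a7, and rich cell 6, with 28 reads over all 3 genes. By CPM the poor cell 7, at 14.03, stood above the rich cell 17, at 11.6, so the line at 10 reads separates these neighbours only through their depth.

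**Figure D1:**
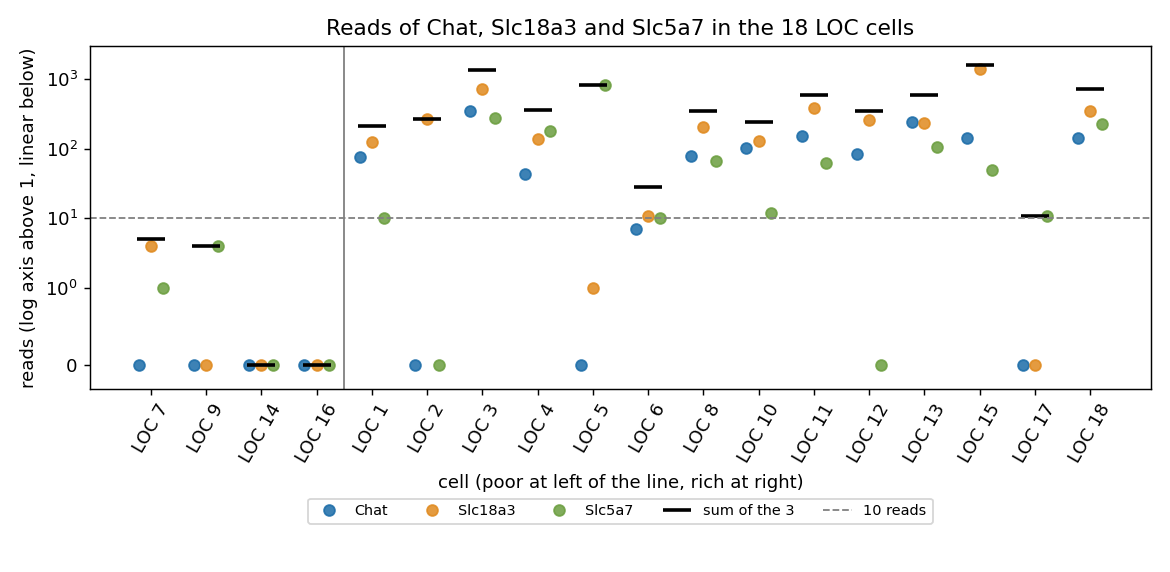
Reads of Chat, Slc18a3 and Slc5a7 (dots) and their sum (black bar) in each of the 18 LOC cells, on an axis that is logarithmic above 1 read; the dashed line marks 10 reads. The 4 poor cells hold 0 to 5 reads and the 14 rich cells 11 to 1613.

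The tdTomato sequence was counted in 1 of the 4 poor cells, cell 14, with 4 reads, and at 0 in cells 7, 9 and 16. It was read in 10 of the 14 rich cells, with up to 51 reads, and was at 0 in the other 4, so a missing tdTomato read also occurs in rich libraries. The Cre sequence was at 0 in the 4 poor cells and reached 1 read in the rich ones.

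The poor libraries were not alike in depth or makeup. Total counts were 356412 in cell 7, 491782 in cell 9, 704560 in cell 14 and 507955 in cell 16, against 637279 to 1404896 in the rich cells, so 3 of the 4 were shallower than any rich library. Genes with at least 1 read numbered 15169, 9585, 9525 and 7631 in the same order, inside the rich range of 6654 to 18414. Mitochondrial genes took 18.5% of counts in cell 7 (exact binomial 95% interval 18.4 to 18.6), 32.4% in cell 9 (32.3 to 32.6), 2.36% in cell 14 (2.33 to 2.40) and 43.7% in cell 16 (43.5 to 43.8), where the rich cells spanned 2.51 to 30.2%. Cells 9 and 16 thus lay above every rich cell and cell 14 below. The part of depth and mitochondrial share in the differences below was not tested.

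Between the sides, 13598 genes had a read in 50% or more of the poor or of the rich cells. A gene met the size rule when its reads summed over the cells of a side, as a share of all reads of that side, were 2 or more times the share on the opposite side, the mean log2(CPM + 1) differed by at least 1, and at least 50% of the cells of the higher side had a read. By this rule 1736 genes (12.8% of those considered) were higher and 2897 (21.3%) lower in the poor cells, and the median difference over all genes considered was -0.14 log2 units. These are sizes without a test, and the counts carry no error rate. Without cell 14 the shares were 13.9% higher and 28.7% lower, and without cell 7 they were 10.2% and 29.9%. Only 1 gene, Sema3b, was above all rich cells in all 4 poor cells (0.00735%), and it did so on 1, 2, 3 and 1 reads in cells 7, 9, 14 and 16. Another 13 (0.0956%) were below all rich cells in all 4, Ache, Tppp3, Creb3, L1cam, Canx and Map1b among them.

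Most of the higher genes did not exceed the rich median in all 4 poor cells. Of the 1736, 276 (15.9%) exceeded the rich median in all 4 poor cells, and 546 (31.5%) had a read in all 4. Cell 14 was the highest poor cell for 730 of them (42.1%), cell 7 for 456, cell 9 for 317 and cell 16 for 233. On the lower side, 1100 of the 2897 genes (38.0%) were read in at most 1 poor cell and 328 in none. These shares were not computed over all genes considered, so they describe only the genes that met the rule. Cell 14 was also the deepest of the 4 libraries.

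Of the 12 genes with the widest difference on the lower side, 5 belong to the list of LOC-high genes: Calca, Col4a3, Bmp3, Ucn and Anxa2. That list was drawn from these same libraries, and most of their LOC cells are the rich cells. Lower levels of its genes in the poor cells are thus partly built in. A loss of LOC identity cannot be read from them, and the overlap expected from such a list was not tested. Calca, which encodes CGRP, was at 5.61 CPM in cell 7 and at 0 in cells 9, 14 and 16, against 2.11 to 35900 CPM (median 1810) in the rich cells. Ache, the acetylcholine-degrading esterase, was at 5.61, 0, 0 and 21.7 CPM in cells 7, 9, 14 and 16, and at 33.8 to 2640 CPM (median 1060) in the rich cells. The poor and rich values of Ache did not overlap, while those of Calca overlapped at the lowest rich cells. The mean log2(CPM + 1) was lower in the poor cells by 9.29 units for Calca and 7.36 for Ache.

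The other genes of widest difference on the lower side were Tppp3 (-6.25), Col4a3 (-6.25), Slc18a3 (-6.08), Bmp3 (-6.04), Creb3 (-6.01), Gaa (-6.00), Ucn (-5.80), L1cam (-5.75), Chat (-5.44) and Anxa2 (-5.40). Chat and Slc18a3 are among them by construction. Ucn, the urocortin gene, was at 11.2 CPM in cell 7 and at 0 in the other poor cells, where the rich median was 136. Bmp3, a secreted signal of the BMP family, was at 0 in all 4 poor cells and reached 487 CPM in the rich cells, of which 12 of 14 had a read. Gaa, the lysosomal glucosidase, was at 22.4, 0, 2.84 and 108 CPM in cells 7, 9, 14 and 16 and at a rich median of 650, with 13 of 14 rich cells above the highest poor cell.

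Of 14 genes high in LOC cells, a list drawn from these libraries and so not independent of them, all were considered. The size rule was met as lower by 12 and as higher by none, with a median difference of -4.50. Over all genes considered, 21.3% were lower. That share is no fair baseline for a list drawn largely from the rich cells. The 14 genes summed to 87.0 CPM in cell 7, 185 in cell 9, 534 in cell 14 and 189 in cell 16. In the rich cells they summed to 85.6 to 48900 CPM (median 4770), and the MOC median was 159. Cells 7, 9 and 16 thus lay near the MOC median for this list. So did rich cell 6, which at 85.6 CPM was below all 4 poor cells. Rich cell 17 had Ucn, Col4a3, Bmp3 and Anxa2 at 0, although its sum was 1300 CPM. The sum in cell 14 came mainly from Pcsk1, a prohormone convertase, at 216 CPM, Syt5, a vesicle calcium sensor, at 190 CPM, and Cpne7, a calcium-binding copine, at 123 CPM. Npy remained readable at 93.5 CPM in cell 9 and 78.7 CPM in cell 16, above the rich median of 32.4, although the gene met the size rule as lower (-1.52).

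Of the 10 cholinergic and motor-lineage genes outside the rule, 9 were considered. All 9 met the size rule as lower, with a median of -3.80, or 8 of 9 without cell 14. Over all genes considered, 21.3% were lower, and 28.7% without cell 14. The 10 genes summed to 115 CPM in cell 7, 26.4 in cell 9, 7.10 in cell 14 and 146 in cell 16. In the rich cells they summed to 79.0 to 4820 CPM (median 2480). Cells 7 and 16 overlapped the lowest rich cells, of which cell 2 stood at 79.0 CPM and cell 6 at 126. In each poor cell only 1 of the 10 genes, Ache, lay below every rich cell. Values as low as those of the other genes thus also occurred among the rich cells. Rich cell 17 had reads of 3 of the 10 genes, against 7, 5, 4 and 4 in cells 7, 9, 14 and 16. Isl1, the LIM homeobox factor of motor neurons, was at 0 in all 4 poor cells and at a rich median of 30.1 CPM. Gata3 was at 0, 2.03, 1.42 and 1.97 CPM in cells 7, 9, 14 and 16, each from 1 read or none, against a rich median of 137. Gata2 was at 5.61, 0, 1.42 and 0 CPM against 95.3. Ecel1, a metalloprotease of developing motor neurons, was the exception in cell 16, at 108 CPM, and was at 16.8, 10.2 and 2.84 CPM in cells 7, 9 and 14. Its rich median was 530 CPM.

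The transmitter genes differed among the 4 cells. Of the inhibitory genes described here, Gad1 and Gad2 make GABA, Slc32a1 loads GABA and glycine into vesicles and Slc6a5 is the neuronal glycine transporter. Of the vesicular glutamate transporters, Slc17a7 is typical of cortex, hippocampus and cerebellar granule cells and Slc17a6 of brainstem and thalamus. Glutamate transporters other than Slc17a8 met the size rule as higher, with differences of 1.26 for Slc17a6 and 2.01 for Slc17a7, and no gene of the inhibitory list met it in either direction (median -0.70). Both statements rest on single cells. Without cell 14 neither Slc17a6 (0.70) nor Slc17a7 (1.19) met the rule and the inhibitory median was 1.02. The 1 glutamate transporter that then met it as higher was Slc17a8, on few reads. Without cell 7 Slc17a6 (0.35) did not meet the rule and Slc17a7 (2.25) did. In that comparison 3 inhibitory genes were lower and the inhibitory median was -1.70.

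Cell 14 had no read of Gad1, Gad2, Slc32a1 or Slc6a5. It carried Slc17a7 at 650 CPM (exact Poisson interval 592 to 712), above the rich maximum of 156. Slc17a6, at 59.6 CPM (43.0 to 80.6), was just above the rich maximum of 54.6, which lay inside its interval. Cell 7 held inhibitory and glutamate genes at once: Gad1 at 286 CPM (233 to 347), Gad2 at 253, Slc6a5 at 121, Slc32a1 at 53.3, Slc17a6 at 123 (89.7 to 166), Slc17a7 at 70.1 and Slc17a8 at 2.81. Of these, Gad1, Slc32a1 and Slc17a6 exceeded every rich cell, whose maxima were 157, 51.7 and 54.6 CPM. Slc32a1 did so by little, and no interval was computed for it. Slc17a8, from 1 read, exceeded a rich maximum of 1.46. Of the 4 inhibitory genes with at least 20 reads in cell 7, 0 stood at least 1 log2 unit above the highest rich cell. Among the glutamate transporters 1 of 2 did, and among all genes with at least 20 reads there 14.7%.

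Cell 16 held Gad2 at 140 CPM, Slc6a5 at 82.7, Gad1 at 61.0, Slc32a1 at 7.87 and Slc17a7 at 112, all within the rich ranges, with Slc17a6 and Slc17a8 at 0. Cell 9 also had reads of all of them, with Slc17a7 at 36.6 CPM, Gad2 at 32.5, Gad1 at 22.4, Slc17a6 at 16.3, Slc17a8 at 4.07, Slc6a5 at 4.07 and Slc32a1 at 2.03. Rich cells also had reads of these genes: Gad1 was read in 14 of 14, with a median of 36.6 CPM, and Slc17a7 in 13 of 14, with a median of 53.9. A read of a GABA or glutamate gene therefore does not set a poor cell apart from cholinergic cells of the same slices; levels above the rich maximum were seen in cells 7 and 14, and for Slc17a8 also in cell 9.

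**Figure D2:**
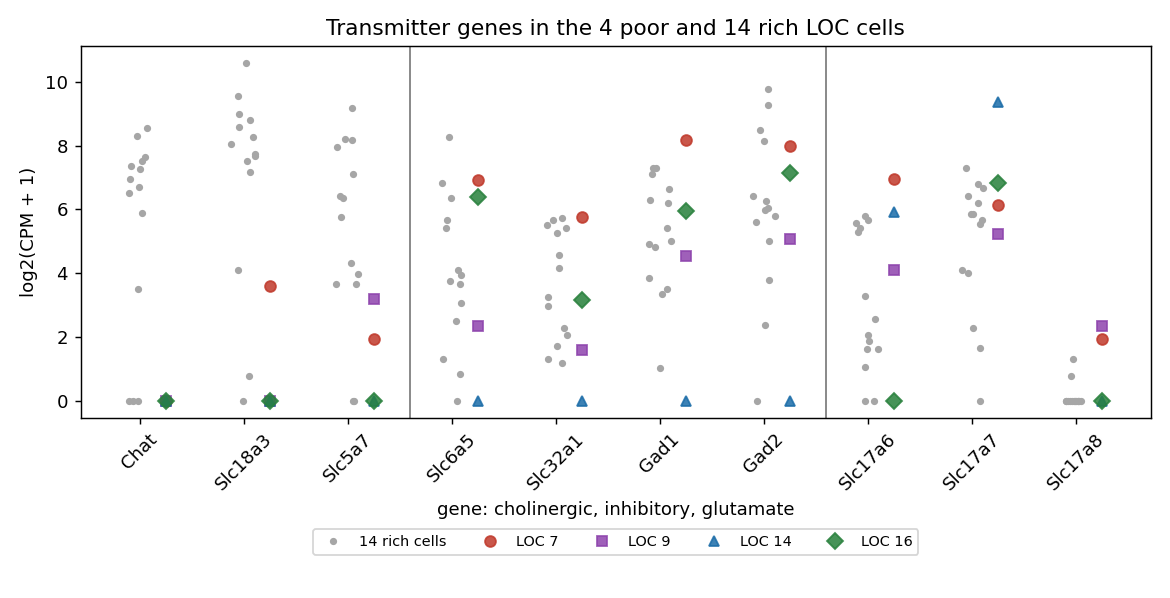
Level of 10 cholinergic, inhibitory and glutamate transmitter genes as log2(CPM + 1) in the 14 rich LOC cells (grey) and the 4 poor cells (coloured symbols). Cell 14 is at 0 for the 4 inhibitory genes drawn and highest for Slc17a7, at 650 CPM. Cell 7 is above the rich cells for Gad1 and Slc17a6, and by little for Slc32a1.

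Cell 14 was the LOC library with the least myelin RNA. The 12 oligodendrocyte markers summed to 22.7 CPM (16 reads, 0.00227% of counts), with 9 of the 12 at 0, whereas the rich cells ranged from 1.13 to 23.9% of counts. Mbp, the myelin basic protein gene, was at 12.8 CPM in cell 14 and at 8230 CPM or more in every rich cell. Astrocyte markers summed to 710 CPM, with S100b, Aqp4, Aldh1l1 and Gjb6 at 0, below the rich minimum of 1460. Pan-neuronal genes summed to 8150 CPM, above the rich maximum of 7700, with 11 of 12 read. Snap25, of the vesicle fusion machinery, was at 3420 CPM and Syt1, the vesicle calcium sensor, at 1640 CPM, both above every rich cell, while Nefh, a heavy neurofilament of large projection neurons, was at 0.

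The 8 named genes that stood out most in cell 14 were Cckbr, Svet1, Ptk2b, Pparg, Ddit4l, Tcap, Chrm1 and Tfpi. Cckbr, a cholecystokinin receptor, was at 312 CPM (272 to 356), at 0 in the other 3 poor cells and at most 1.30 CPM in the rich cells. Chrm1, a muscarinic acetylcholine receptor, was at 680 CPM against a rich maximum of 7.12. Ptk2b, a calcium-activated tyrosine kinase, was at 458 CPM against 2.95. Svet1, a transcript inside the Unc5d gene on the same strand (GRCm38 chr8:29108837-29112776) and known from upper-layer cortical neurons, was at 128 CPM and at 0 in all 14 rich cells. Unc5d itself, a netrin receptor, was at 329 CPM against a rich maximum of 29.5, and reads of the 2 genes cannot be told apart where they share sequence. In all, 771 of the 4984 genes with at least 20 reads in cell 14 (15.5%) stood at least 1 log2 unit above the highest rich cell.

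Because several of these genes are known from the cerebral cortex, 24 genes of forebrain excitatory neurons were read as a list chosen after values of cell 14 were seen, so their count is a description and supports nothing by itself. Cell 14 had reads of 21 of the 24, summing to 9170 CPM against 210 to 705 CPM in the rich cells, and 19 of the 24 exceeded every rich cell. Neurod6, a transcription factor of cortical and hippocampal pyramidal neurons, was at 369 CPM (326 to 417), at 0 in the other poor cells and at most 24.7 CPM in the rich ones. Cux2, a factor of upper cortical layers, was at 554 CPM against a rich maximum of 142. Among synaptic genes of pyramidal neurons, Nrgn was at 1250 CPM against 29.5, Camk2a at 884 against 339, and Camkv at 853 against 12.6. Mef2c stood at 1570 CPM against 41.0, Rorb, of layer 4, at 131 against 75.7, and Emx1, a dorsal forebrain factor, at 72.4 against 6.28.

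Not all genes of that list were high in cell 14. Emx2, Fezf2 and Rasgrf2 were at 0 and Tbr1 was at 12.8 CPM. This level of Tbr1 lay below cells 7, 9 and 16, at 56.1, 46.8 and 31.5 CPM. Among the 17 hindbrain regional factors, 10 were at 0 in cell 14, while Foxp1, which is also a cortical gene, was at 307 CPM, above a rich maximum of 84.1. Hox genes were scarce everywhere: Hoxa2, Hoxa3, Hoxb2, Hoxb3, Hoxb4 and Hoxb5 had a median of 0 in the rich cells as well.

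Cck, the cholecystokinin gene, was at 1940 CPM in cell 14 (1840 to 2040), against 70.1, 2.03 and 90.6 CPM in cells 7, 9 and 16 and a rich maximum of 97.5. Lamp5, a vesicle membrane protein of subsets of cortical neurons, was at 937 CPM in cell 14 and at 16.8, 38.6 and 78.7 CPM in cells 7, 9 and 16, with a rich maximum of 132. Activity-regulated genes were also high in cell 14: Arc was at 1220 CPM against a rich maximum of 491, and at 0 in the other poor cells, Ier2 at 552 against 97.2, and Npas4 at 78.1 against 23.5. Fos, at 1450 CPM, was within the rich range of 100 to 4980. The genes that lead cell 14 are known, as background, from glutamatergic neurons of the forebrain, whereas its label places it in the lateral superior olive. With 2 of the 3 glutamate transporters read, it is called here by these genes and given no cell type name.

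**Figure D3:**
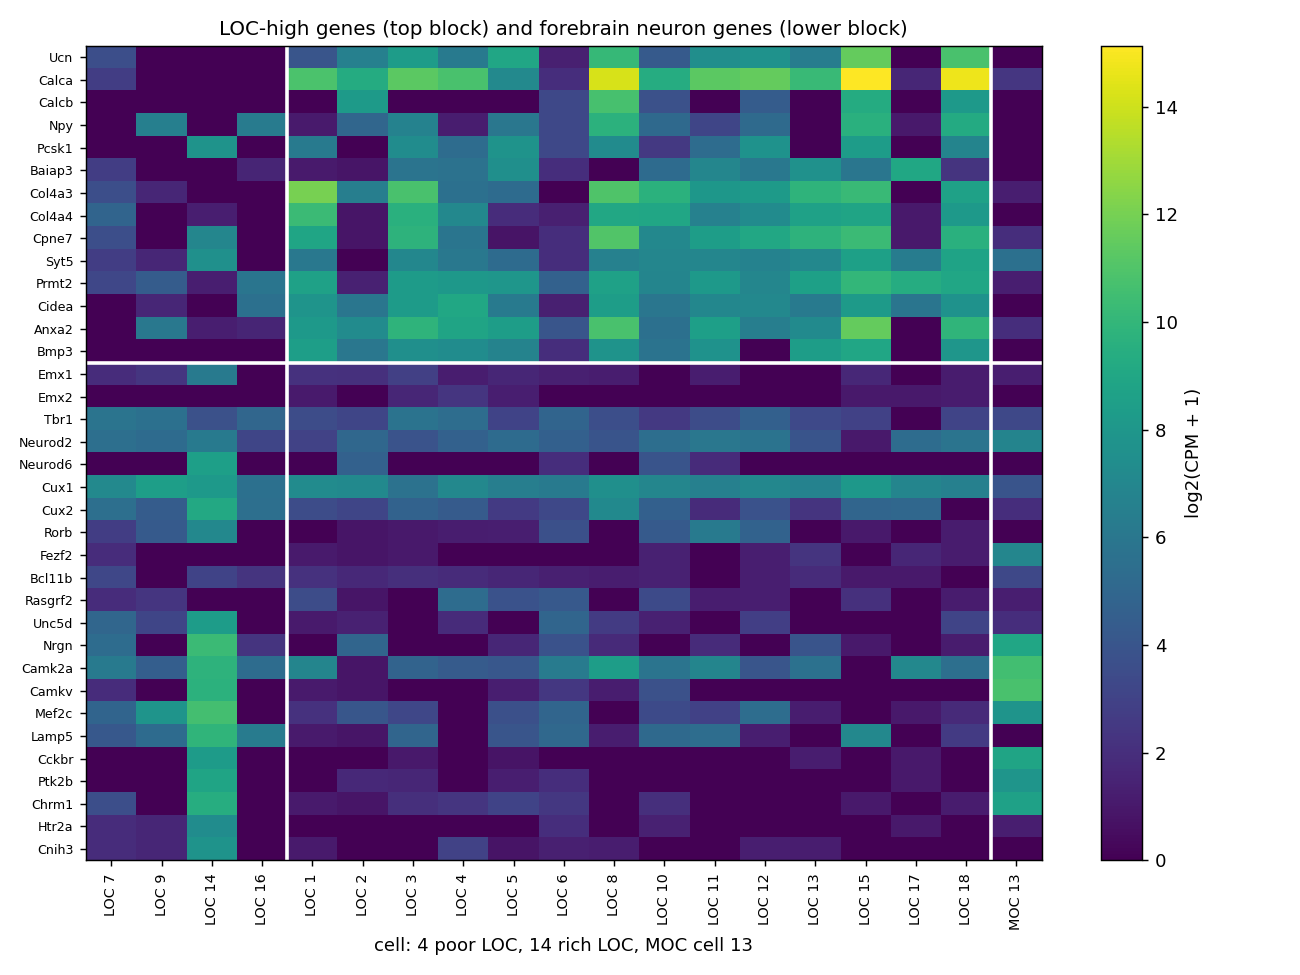
Level as log2(CPM + 1) of the 14 LOC-high genes (upper block) and 22 of the forebrain neuron genes chosen after cell 14 was seen (lower block), with columns for the 4 poor LOC cells, the 14 rich LOC cells and MOC cell 13. The poor cells are dark in most of the upper block, and in the lower block cell 14 is bright for most genes and MOC cell 13 for fewer, such as Camkv, Camk2a and Cckbr.

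The LOC cell 14 pattern had a partial counterpart on the other side of the series. MOC cell 13, with 1 cholinergic read and 0.0363% oligodendrocyte counts, summed to 5410 CPM over the forebrain list, with Camkv at 1740 CPM, Camk2a at 1480, Nrgn at 498 and Cckbr at 449, but had Neurod6, Lamp5 and Cck at 0 and Fezf2 at 122 CPM where LOC cell 14 had none.

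Cell 7 was the shallowest library and had reads of many neuronal gene lists. Ion channel and calcium buffer genes of fast auditory brainstem neurons were read for 10 of 10 members and summed to 4180 CPM, above the rich maximum of 2440, and 8 of the 10 exceeded every rich cell. At the cut of at least 20 reads and 1 log2 unit above the highest rich cell, 2 of the 10 passed. Of all genes with at least 20 reads in cell 7, 14.7% did. Calb1, the calcium buffer calbindin, was at 1100 CPM against a rich maximum of 629, Pvalb, parvalbumin, at 1030 against 851, and Kcna2, a low-threshold potassium channel, at 648 against 236. Nefm, a neurofilament, was at 1170 CPM against 800. These genes are expressed by many fast-spiking neurons, Purkinje cells of the cerebellum included.

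A list of 13 cerebellar neuron genes, chosen after the values of cell 7 were seen, summed to 5310 CPM there against 66.9 to 4060 CPM in the rich cells, with all 13 read. Car8, of Purkinje cells, was at 1760 CPM against a rich maximum of 852, Pcp4 at 1360 against 724, and Zic1, a factor of cerebellar granule and dorsal hindbrain neurons, at 446 against 282. Pcp2, the most restricted Purkinje gene of the list, was at 72.9 CPM and inside the rich range of 3.16 to 386, and Gabra6, a granule cell GABA receptor subunit, at 578 CPM was inside a range reaching 615. Reads of these cerebellar genes were thus common in the rich cells too. In cell 7, 4 of the 13 exceeded every rich cell. Of the 8 with at least 20 reads there, 1 stood at least 1 log2 unit above the highest rich cell. Among all genes with at least 20 reads in cell 7, 14.7% did. In cells 9, 14 and 16 the list summed to 1240, 29.8 and 2510 CPM.

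Monoamine genes appeared at low levels in cell 7, with Dbh, which makes noradrenaline, at 132 CPM, Tph2, which makes serotonin precursors, at 42.1 CPM, and Fev, a serotonergic factor, at 25.3 CPM, each above the rich maxima of 121, 2.61 and 8.86. Of 9 monoamine genes 6 were considered between the sides. Of these, 2 (Dbh at 1.88 and Fev at 1.13) met the size rule as higher, where 12.8% of all genes did, and Slc18a2 as lower (-1.55). Without cell 7 none was higher. Atoh1, a factor of the rhombic lip, was at 67.3 CPM in cell 7, at 1 read in cell 14 and at most 1.60 CPM in the rich cells. Red blood cell genes summed to 1770 CPM and oligodendrocyte markers to 34300 CPM in cell 7, both within the rich ranges.

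The named genes that stood out most in cell 7 were Cldnd2, Or51a39, Magea6, Vmn1r181, Trav6-2, Or5t7, Or51ag1 and Irf9. Most are members of large families with near-identical copies, odorant receptor, vomeronasal receptor, T cell receptor and Mage genes, at 87.0 to 238 CPM, and their assignment is uncertain. Cldnd2 was at 224 CPM and Irf9, an interferon response factor that overlaps Rnf31 on the same strand, at 328 CPM. By the same cut as for cell 14, 409 of 2787 genes (14.7%) stood above the rich cells. Cell 7 thus held inhibitory, glutamate, monoamine and cerebellar genes together, at summed levels of 814, 196, 222 and 5310 CPM, and no list set it to a single neuron type. Rich cells held them together too, such as cell 10 at 984, 75.3, 137 and 2480 CPM. The inhibitory and monoamine sums of cell 7 lay within the rich ranges, which reached 1010 and 285 CPM. Its glutamate and cerebellar sums lay above the rich maxima of 165 and 4060 CPM.

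Cells 9 and 16 both carried microglial genes at sums above the rich cells, and astrocyte genes at sums inside the rich range. Of 12 microglia markers, 9 were considered between the sides. Of these, 6 met the size rule as higher, where 12.8% of all genes did, and none as lower (median 2.60, against -0.14 over all genes). The summed level was 210 CPM in cell 7, 2080 in cell 9, 508 in cell 14 and 1780 in cell 16, against 32.4 to 1320 CPM (median 148) in the rich cells. The MOC cells ranged from 40.7 to 9480 CPM (median 665), so sums as high as in cells 9 and 16 also occurred there. Csf1r, the receptor on which microglia depend, was at 970 CPM in cell 9 (885 to 1060) and 630 CPM in cell 16 (563 to 703), at 19.6 in cell 7 and at 0 in cell 14, with a rich maximum of 93.0. Ctss, a lysosomal protease of microglia, was at 437 CPM in cell 16 against a rich maximum of 135, and Cx3cr1, the fractalkine receptor, at 94.5 against 39.9.

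Not every defining microglia marker followed. Tmem119 was at 2.03 CPM (1 read) in cell 9 and at 0 in cells 7, 14 and 16, and Itgam was the same, while their rich maxima were 125 and 39.1 CPM. P2ry12 met the size rule as higher (2.60) with every poor cell below the rich maximum of 195 CPM. In cell 14, C1qb was at 240 CPM and P2ry12 at 189 CPM, and 9 of the 12 markers were at 0.

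Astrocyte markers summed to 7720 CPM in cell 9, 7460 CPM in cell 16 and 3550 CPM in cell 7. All 3 sums lay inside the rich range, in which cells 2 and 17 reached 8900 and 7780 CPM. In cell 16, Aldh1l1, a folate enzyme of astrocytes, was at 374 CPM against a rich maximum of 71.6, Gja1, their gap junction protein, at 329 against 210, Fgfr3 at 215 against 111 and Aldoc at 4250 against 2630. In cell 9, Gfap was at 1220 CPM against 1110, Slc1a3, a glial glutamate transporter, at 1390 against 907, and Aldoc at 3480. Of the astrocyte markers with at least 20 reads, 0 of 6 in cell 9 and 1 of 10 in cell 16 stood at least 1 log2 unit above the highest rich cell. Among all genes with at least 20 reads, 8.96% did in cell 9 and 6.29% in cell 16. Of the 10 astrocyte markers none met the size rule as higher between the sides and S100b met it as lower (-2.83); without cell 14, 6 of the 10 met it as higher, where 13.9% of all genes did.

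Oligodendrocyte RNA was heavy in cell 9, at 12.4% of counts (12.3 to 12.5), where Mbp alone was at 88000 CPM and 5 of 12 markers, Mag, Cnp, Mal, Opalin and Ugt8a, exceeded every rich cell. Of the 11 markers with at least 20 reads in cell 9, 1 stood at least 1 log2 unit above the highest rich cell. Among all genes with at least 20 reads there, 8.96% did. Cell 16 held 4.08% (4.03 to 4.13) and cell 7 3.43% (3.37 to 3.49). These shares lay within the rich range, in which cell 17 reached 23.9%. Between the sides 1 of the 12 markers, Aspa, met the size rule as lower and none as higher. The median difference was -1.18 with cell 14 and 0.99 without it, so its sign was set by that cell.

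Neuronal RNA was present in both cells at the low end. Pan-neuronal genes were read for 12 of 12 members and summed to 2520 CPM in cell 9, below the rich minimum of 2750, and to 3070 CPM in cell 16. Eno2, the neuronal enolase, was at 124 and 165 CPM in cells 9 and 16, below the rich minimum of 243. Between the sides Tubb3 (-1.69) and Eno2 (-1.36) met the size rule as lower and Elavl4 (1.45) as higher; without cell 14 Elavl4 (0.98) did not meet it.

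The genes that stood out most in cell 9 were Tnfaip8l2, Ccl22, Or52ab2, Slco2b1, Rdh16f2, Slc22a6, Ssxb2 and Zfp418, at 44.7 to 248 CPM. Ccl22, a chemokine of myeloid cells, was at 248 CPM against a rich maximum of 2.32, and Tnfaip8l2, an immune regulator, at 77.3 CPM against 0. In cell 16 they were Krt24, Fcamr, Zswim3, Pcdhb6, Vmn2r20, Crym, Ormdl1 and Ucma, at 51.2 to 152 CPM. Krt24, a keratin, was at 66.9 CPM in cell 16 and 56.1 CPM in cell 7 and at 0 in all rich cells. The count past the rich maximum was 236 of 2634 genes (8.96%) in cell 9 and 174 of 2766 (6.29%) in cell 16.

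When each LOC cell was set against the other 17 by the same cut, 13.9% of genes with at least 20 reads stood above all others in cell 14, 12.8% in cell 7, 6.95% in cell 9 and 4.88% in cell 16. The rich cells ranged from 0.21 to 8.71% with a median of 5.92%. Cells 7 and 14 thus lay outside the rich range, and cells 9 and 16 inside it.

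The genes of widest difference on the higher side of the comparison were Grn (4.44), Lsm14a (3.96), Tmem18 (3.91), Abt1 (3.85), Prps1 (3.84), Csf1r (3.84), Gadd45b (3.81), Maged2 (3.81), Cbs (3.74), Lamp5 (3.65), Cck (3.63) and Ptges2 (3.63). Grn, progranulin, a lysosomal protein of microglia and neurons, was at 107, 626, 295 and 120 CPM in cells 7, 9, 14 and 16, and at 0 to 176 CPM (median 8.93) in the rich cells. Its values overlapped with the highest rich cells. Gadd45b, a stress-response gene, was at 342, 183, 1220 and 47.2 CPM against a rich maximum of 121. Cck and Lamp5 owe most of their sums to cell 14, and without it their differences were 2.09 and 2.5. For Csf1r the difference was 5.81 without cell 14. Grn, Lsm14a and Csf1r on this side, and Creb3, Ache, Anxa2 and L1cam on the lower side, overlap other gene models in the annotation, from which reads without strand cannot be separated.

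In the remaining lists several medians depended on single cells. The neuropeptide list kept 5 or 6 lower genes as each poor cell was left out. Beside the counts of these lists, 12.8% of all genes considered were higher and 21.3% lower. Without cell 7 these shares were 10.2% and 29.9%. Of 13 considered hindbrain regional factors, 4 met the size rule as higher (Foxp1, Atoh1, Foxp2 and Lhx9) and 2 as lower (Meis2 and Zfhx4), with a median of 0.44. Without cell 7, 1 of 9 was higher and 2 lower, and the median was -0.76. Of 12 considered neuropeptides, Cck, Cartpt and Crh were higher and 6, among them Calca, Ucn, Calcb and Pdyn, lower (median -0.81); Cartpt came from cell 7, at 81.4 CPM, and Crh from 3 reads in cell 7 and 1 in each of cells 9 and 14. Immediate early and injury genes gave 3 higher of 10 (Ier2 at 2.45, Npas4 at 1.78 and Atf3 at 1.35), with Atf3, an injury factor, at 415 CPM in cell 9 and at most 279 in the rich cells.

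Brainstem motor neuron genes gave 1 higher, Slit2 at 2.33, and 2 lower of 7, Bcl6 and Lhx4. Fast auditory brainstem genes gave 2 higher of 10, Calb1 at 2.02 and Kcna2 at 1.93, with a median of 0.47; without cell 7 none was higher and 1 lower, with a median of -0.13. No perineuronal net gene of 8 and no blood vessel marker of 7 met the size rule, with medians of -0.03 for each list. These medians ran from -1.11 to 0.55 and from -0.60 to 0.19 as each poor cell was left out. Oligodendrocyte precursor markers gave 1 higher of 5, Olig2, and 2 lower, Olig1 and Sox10 (median -0.07), and red blood cell genes 1 lower of 4, Hbb-bs (median -0.27). The red blood cell median was 1.38 without cell 14, and the precursor median 0.45 without cell 16.

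The forebrain list gave 13 higher of 21 considered, where 12.8% of all genes were higher. Without cell 14 it gave 5 of 19, where 13.9% of all genes were higher. The cerebellar list gave 1 higher, Barhl1, and 3 lower of 13, with a median of -0.21, and 5 higher and none lower without cell 14 (median 1.24); all 3 lower ones, Cbln1, Cbln3 and Grm4, were at 1.42 CPM or less in cell 14.

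**Figure D4:**
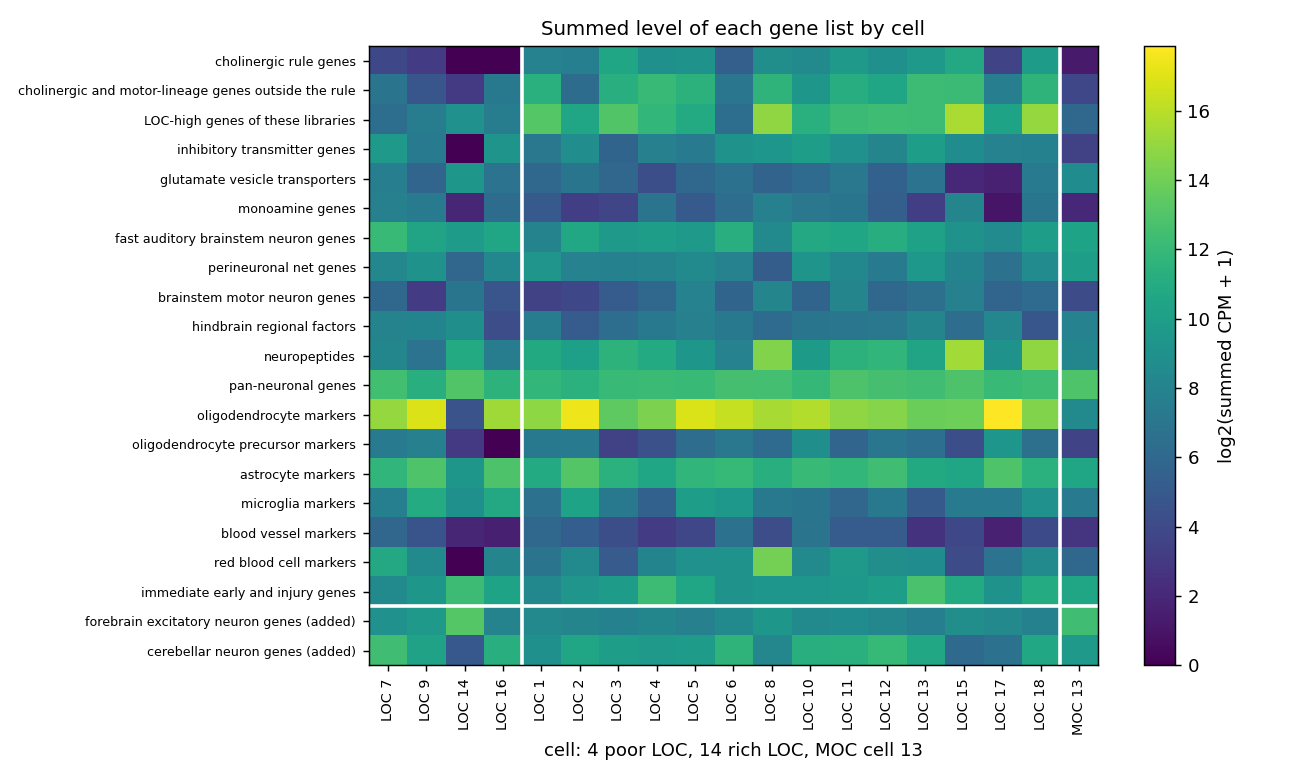
Summed level of each gene list as log2(summed CPM + 1) in the 4 poor LOC cells, the 14 rich LOC cells and MOC cell 13; the bottom 2 rows are lists added after values were seen. Cell 14 is dark for oligodendrocyte markers (22.7 CPM) and inhibitory genes (0). All 4 poor cells are low for LOC-high genes, as is rich cell 6 (85.6 CPM).

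Across the 13598 genes considered, log2(CPM + 1) of each poor cell correlated with the rich cells at a median Pearson r of 0.42 for cell 7, 0.44 for cell 9, 0.40 for cell 14 and 0.45 for cell 16. The rich cells had medians of 0.43 to 0.59 with each other. Among the poor cells, r ran from 0.44 to 0.46 between cells 7, 9 and 16 and from 0.30 to 0.32 for pairs with cell 14. The nearest LOC library to each of the 4 was the rich cell 6, at 0.56, 0.59, 0.45 and 0.59. This was not particular to the poor cells. Cell 6 was also the nearest rich library to rich cells 2, 3, 5, 10, 11, 12, 17 and 18. Its median r with the other rich cells, 0.59, was the highest. Cell 6 was the rich library with the second fewest cholinergic reads and the most genes read, 18414. These correlations are over genes, which are not independent, and the part of depth and of glial RNA in them was not tested.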

How the data were processed

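Single aspirated cells were sequenced, 1 library per cell. The authors deposited raw counts per gene and cell, and, per the file headers and name, a normalized signal table (CPM on TMM sizes) of 20784 genes. The submitters' processing notes name bcl2fastq, STAR 2.5.2, DESeq2, edgeR and limma with builds GRCm38 and mm10. For these tools no role, and for the counting no program or annotation, is given in the sources used here. Nextera libraries keep no strand, so overlapping genes cannot be told apart.

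From the counts of 55421 mouse genes (55154 matched to reference symbols; 19 added sequences kept apart), CPM was computed on each cell's total. The size rule is given with its results. Intervals are exact (95%) and, as limits for a 0, cover counting error only. Columns of all 31 cells were matched to the labels by name.

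Named by rule were the 3 cholinergic genes, tdTomato, the inhibitory and glutamate genes, the 12 genes of widest difference per direction (read in at least 3 of 4 poor or 75% of rich cells), the 8 genes per poor cell (at least 20 reads) with the widest excess over the rich maximum, and up to 4 per list; predicted models and pseudogenes were not named. A few members of the lists are counted but not reported here. Other list members were named after their values were seen. The members and lists were chosen with earlier results of these data known, and 2 lists (forebrain, cerebellar) were added after the values were seen. Alternatives used edgeR 4.0.16 (TMM), other thresholds, scalings and filters, and left out each cell.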

Additional observations from a re-analysis of the deposited data

Results flagged for a closer look

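Among 21 library measures and list sums of the 4 poor cells, 1 had a cell far from the other 3: the summed oligodendrocyte markers of cell 14, at 4.567 on the log2(summed CPM + 1) scale, with a gap to the next cell that is past Dixon's 95% limit for 4 values. About 1 in 20 such groups is marked in this way by chance.

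Reads were also counted on sequences added to the mouse reference. The added DsRed sequence had 279 reads over the 4 poor cells (51, 60, 86 and 82 in cells 7, 9, 14 and 16) and 5 to 208 in the rich cells, although tdTomato was at 0 in 3 of the 4. The added mLamp3 sequence had 105 reads (7, 21, 37 and 40), with 0 to 70 in the rich cells. What these reads stem from was not tested.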

How the results depend on the processing

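The count of higher genes (1736) became 852 with a threshold of 20 reads, which moves cell 17 to the poor side, 674 with a pseudocount of 10 and 976 with a minimum mean of 10 CPM. The count of lower genes (2897) became 1403 with a pseudocount of 10. Under the other settings, thresholds of 5 and 50 reads, 10 CPM in place of 10 reads, medians, TMM sizes, the authors' normalized values, thinning, no minimum share of cells, and 2 settings chosen after seeing the data (without cells above 10% oligodendrocyte counts; rich cells of over 50 reads only), both counts stayed within 1.5 times. The genes behind a similar count changed more. Of the 1736 higher genes, 892 were shared at 5 reads and at 10 CPM, and 927 at 50 reads. Of the 2897 lower genes, 2507, 2507 and 2070 were shared at these settings. Leaving out each cell in turn gave 1245 to 2408 higher and 2653 to 3683 lower genes. Without cell 7, 980 of the 1736 higher genes remained, and without cell 14, 1010. A comparison without cells above 1% oligodendrocyte counts could not be made, since no rich cell is at or under 1%.

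The median of the oligodendrocyte markers (-1.18) became 0.29 with medians over cells and 0.99 without cell 14; leaving out each cell in turn gave -2.22 to 0.99. Over all alternatives the median of the LOC-high genes stayed below 0 (-6.55 to -3.10), as did that of the cholinergic genes outside the rule (-4.95 to -2.24), and that of the microglia markers stayed above 0 (1.5 to 3.94). The medians of the inhibitory (-1.90 to 1.02), hindbrain (-0.91 to 0.95), fast auditory (-0.29 to 0.94), neuropeptide (-1.52 to 0.77) and astrocyte lists (-0.52 to 1.52) changed sign between alternatives. No paired analysis was possible because the labels tie no cell to an animal and the cell numbers only name the cells. Depth limits the low genes: 1 read is 2.81 CPM in cell 7.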
